A study of Paxillus involutus ATCC 200175 with 12 samples.

Results

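A set of 93 array features of the ectomycorrhizal fungus Paxillus involutus had clearly higher signal whenever glucose was supplied, and near-equal signal with glucose whether or not ammonium was supplied as well. The set was taken from 12214 features by group means of the log2 expression values. A feature belonged to it if its mean over all 12 arrays was at least 6, if its mean was higher with glucose by at least 1 (a fold of 2) both with and without ammonium, and if the means of the 2 glucose groups lay less than 0.25 apart. The members were thus selected on the group means of all 12 arrays, so the glucose differences, the closeness of the glucose groups and whatever is made of these are given below as a description, with no test. The arrays measured mycelium of strain ATCC 200175 grown axenically, that is with no other organism, on glass beads in Petri dishes. After 9 days on a minimal medium (Minimum Melin Norkrans) and 24 h without nitrogen, every culture received a hot-water extract of maize compost and was kept for 7 days. The extract, freed of particles over 0.2 um and of compounds under 10 kDa, is called organic matter (OM). The 4 groups of 3 arrays were OM with ammonium and glucose (OM+N+G), OM with ammonium (OM+N), OM with glucose (OM+G) and OM alone (OM). The sources used here do not state how much glucose or ammonium was added, and no group is free of the compost extract. The design text mentions 3 separate cultures, taken here as 3 per group, so the spread between replicates combines cultures and subarrays.

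Ectomycorrhizal fungi live on sugars received from tree roots and in return pass on nitrogen, much of which is locked in soil organic matter. P. involutus descends from brown-rot wood decayers and attacks organic matter by oxidation. In fungi generally, glucose is the preferred carbon source and ammonium a preferred nitrogen source, and each can switch whole sets of genes on or off. The study asked how the presence or absence of both affects the breakdown of litter and the release of its nitrogen by this fungus. The features carry running numbers in place of gene names, and 0 of them matched an identifier in the RefSeq gene table of this strain. The members are therefore described by number, without function, and the mycelium could not be checked by marker genes. Each value is relative to the rest of the array, so fewer hyphae with a transcript and less of it per hypha cannot be told apart.

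The 12 arrays had medians between 11.74 and 11.78 (log2), and a random-sequence control lay between 3.66 and 3.80. All arrays with glucose occupied subarrays 7 to 12 of 1 slide and all without it subarrays 1 to 6, with each group in its own run, so treatment and position on the slide cannot be told apart. Within the groups without glucose, 2 arrays stood apart from their replicates. In the members OM replicate 2 was closer to the arrays with glucose, and OM+N replicate 1 was farther from them. They had the lowest array weights estimated by limma (0.43 for OM+N replicate 1 and 0.27 for OM replicate 2). Where the difference of a single member is given, other than at the limits of the rule, its value without these arrays stands beside it.

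Of 11499 features with a mean of at least 6, 476 had a glucose difference of at least 1 with ammonium and 131 without it, and 117 had both. The limit on the difference between the glucose groups removed 24 of these, 20 with a higher mean in OM+N+G and 4 with a higher mean in OM+G. That limit alone was met by 92.3% of all features with a mean of at least 6, so it excluded few, and the minimum on the mean excluded none that met the other limits. The glucose difference without ammonium was the limit that most features missed: 267 features met every other one. paxillus_4115 (1.004) and paxillus_8203 (1.005) lay just inside it, and paxillus_7994 (0.992) and paxillus_717 (0.991) just outside. At the limit on the glucose difference with ammonium, paxillus_6799 (1.013) and paxillus_8263 (1.014) lay inside, and paxillus_4236 (0.993) and paxillus_6935 (0.986) outside. At the limit on OM+N+G minus OM+G, paxillus_5280 (0.246) and paxillus_648 (-0.243) lay inside, and paxillus_5382 (-0.25) and paxillus_6977 (-0.251) outside. The size of the set depended on single arrays: the rule gave 179 features without OM replicate 2, all 93 among them, and 56 without OM replicate 3, all of them members. Without both OM+N replicate 1 and OM replicate 2 it gave 153, of which 86 were members.

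The signal of a feature depends on its probes as well as on the transcript, so levels are compared between arrays and not as amounts of different transcripts. The members' median level was 12.71 in OM+N+G, against 11.26 in OM+N, and 12.71 in OM+G, against 11.52 in OM, while the median of all features with a mean of at least 6 stayed between 11.81 and 11.83 in the 4 groups. Per array, the median over the members was 12.80, 12.68 and 12.64 in OM+N+G, against 10.94, 11.23 and 11.38 in OM+N, and 12.70, 12.69 and 12.77 in OM+G, against 11.34, 11.92 and 11.28 in OM. The 6 arrays with glucose lay within a narrow band, and OM replicate 2 was the highest of those without. In all 93 members the lowest of the 6 glucose arrays was above the highest of the other 6, as it was in 24.7% of all features. The rule makes such a separation likely, so nothing is read from the count.

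**Figure D1:**
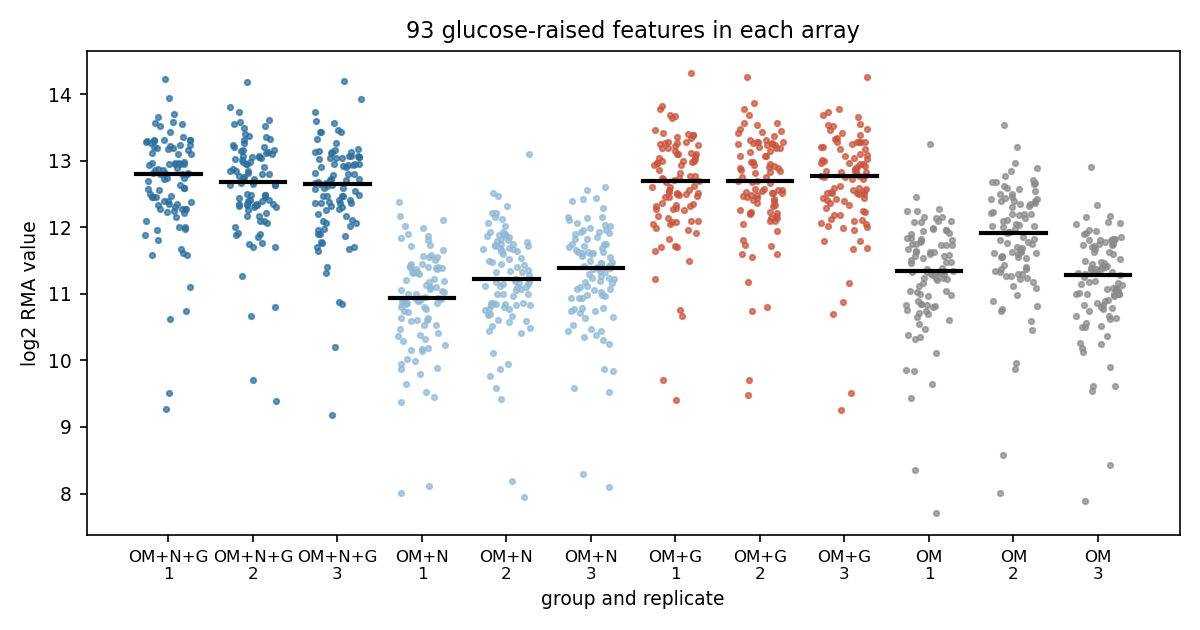
Log2 RMA value (vertical axis) of each of the 93 members in each of the 12 arrays (horizontal axis, by group and replicate), with the median over members as a black line. Medians lie between 12.64 and 12.80 in OM+N+G and at or above 12.69 in OM+G, against 10.94 to 11.38 in OM+N and 11.28 to 11.92 in OM.

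The glucose difference of the members was modest in most and large in few. The mean of both glucose differences had a median of 1.28 over the 93, which is 2.42-fold, and ranged to 2.73 (6.61-fold). Over all features with a mean of at least 6 its median was -0.05. Its lowest value among the members was 1.01. It was at least 1.5 in 18 members and at least 2 in 3. The 12 members with the largest values, 1.61 or more, are described in turn, and the other members lay at 1.59 or below.

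The feature with the largest difference, paxillus_10, stood at 13.94, 13.81 and 13.93 in the OM+N+G arrays, against 10.74, 10.51 and 11.02 in OM+N, and at 13.77, 13.86 and 13.73 in the OM+G arrays, against 10.76, 12.90 and 10.75 in OM (log2). OM replicate 2 alone was high among the arrays without glucose, at 70.6% of the way from the other OM arrays to the OM+G mean. The group means gave a difference of 3.13 with ammonium (SE 0.41, 8.76-fold) and of 2.32 without it (SE 0.41, 4.99-fold). These were 3.12 with ammonium and 3.03 without it when OM+N replicate 1 and OM replicate 2 were left out. The next, paxillus_316, stood at 12.64, 12.45 and 12.31 in the OM+N+G arrays, against 9.64, 9.42 and 9.87 in OM+N, and at 12.56, 12.66 and 12.75 in the OM+G arrays, against 9.85, 11.40 and 9.62 in OM (log2). Again the groups with glucose did not overlap those without, and OM replicate 2 was the highest of the 6. The means gave a difference of 2.82 with ammonium (SE 0.33, 7.07-fold) and of 2.37 without it (SE 0.33, 5.16-fold), and 2.82 with ammonium and 2.92 without it when the deviating arrays were left out. The third feature with a mean difference of at least 2, paxillus_3438, stood at 13.32, 13.37 and 13.33 in the OM+N+G arrays, against 10.14, 11.08 and 11.24 in OM+N, and at 13.39, 13.43 and 13.53 in the OM+G arrays, against 11.64, 12.39 and 11.36 in OM (log2). Here OM+N replicate 1 was the lowest array by a wide margin. The means gave a difference of 2.52 with ammonium (SE 0.26, 5.72-fold) and of 1.65 without it (SE 0.26, 3.15-fold), and 2.18 with ammonium and 1.95 without it when the deviating arrays were left out.

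In paxillus_4540 the arrays lay at 12.58, 12.63 and 12.79 in the OM+N+G arrays, against 9.37, 10.83 and 10.75 in OM+N, and at 12.37, 12.46 and 12.58 in the OM+G arrays, against 10.71, 11.56 and 10.79 in OM (log2). OM+N replicate 1 was more than 1 below both of its replicates, whereas the other OM+N arrays were close to the lower OM arrays. This gave a difference of 2.35 with ammonium (SE 0.31, 5.1-fold) and of 1.45 without it (SE 0.31, 2.73-fold). Leaving out the deviating arrays gave 1.88 with ammonium and 1.72 without it. In paxillus_12637 the values were 13.31, 13.21 and 13.05 in OM+N+G, against 10.18, 11.15 and 11.46 in OM+N, and 13.47, 13.28 and 13.46 in OM+G, against 11.85, 12.66 and 11.39 in OM (log2). The arrays without glucose were spread over more than 2 log2 units and the glucose arrays over less than 0.5. The differences were 2.26 with ammonium (SE 0.31) and 1.44 without it (SE 0.31), and 1.88 with ammonium and 1.79 without it when the deviating arrays were left out. For paxillus_2823 the group means were 12.62 ± 0.14 in OM+N+G, against 10.59 ± 0.56 in OM+N, and 12.63 ± 0.08 in OM+G, against 11.02 ± 0.57 in OM (log2, SD, n = 3).

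In paxillus_1611 the arrays stood at 13.21, 13.13 and 13.26 in the OM+N+G arrays, against 11.21, 11.28 and 11.38 in OM+N, and at 13.18, 13.19 and 13.20 in the OM+G arrays, against 11.16, 12.35 and 11.26 in OM (log2). The OM+G arrays lay within 0.03 of each other, and OM replicate 2 more than 1 above the other OM arrays. The feature had a difference of 1.91 with ammonium (SE 0.22, 3.76-fold) and of 1.61 without it (SE 0.22, 3.04-fold), and 1.87 with ammonium and 1.99 without it when the deviating arrays were left out. In paxillus_5970 the values were 11.98, 11.88 and 11.64 in OM+N+G, against 9.88, 9.94 and 10.25 in OM+N, and 11.92, 11.95 and 12.06 in OM+G, against 10.11, 10.77 and 10.13 in OM (log2), with differences of 1.81 (SE 0.16) with ammonium and 1.64 (SE 0.16) without it. In that feature they were 1.74 with ammonium and 1.86 without it when the deviating arrays were left out. paxillus_5280 had the lowest signal of the 12. It stood at 9.51, 9.70 and 10.20 in the OM+N+G arrays, against 8.01, 7.95 and 8.29 in OM+N, and at 9.70, 9.71 and 9.26 in the OM+G arrays, against 7.71, 8.01 and 7.89 in OM (log2). Its glucose arrays were more spread than those without glucose, and OM replicate 2 was close to its replicates, at 11.8% of the way to OM+G. It had a difference of 1.72 with ammonium (SE 0.17, 3.3-fold) and of 1.69 without it (SE 0.17, 3.23-fold), and 1.69 with ammonium and 1.76 without it when the deviating arrays were left out.

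Of the last 3 of the 12, paxillus_7425 averaged 12.95 ± 0.01 in OM+N+G, against 10.96 ± 0.38 in OM+N, and 12.97 ± 0.02 in OM+G, against 11.57 ± 0.56 in OM (log2, SD, n = 3). paxillus_4133 stood at 13.70, 13.72 and 13.42 in the OM+N+G arrays, against 11.41, 12.47 and 11.93 in OM+N, and at 13.67, 13.68 and 13.78 in the OM+G arrays, against 12.15, 12.54 and 11.73 in OM (log2), so that each array without glucose was below every array with it. paxillus_5582 averaged 12.88 ± 0.02 in OM+N+G, against 11.07 ± 0.27 in OM+N, and 12.96 ± 0.12 in OM+G, against 11.56 ± 0.58 in OM (log2, SD, n = 3). In each of the 3 the groups without glucose had the larger SD.

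**Figure D2:**
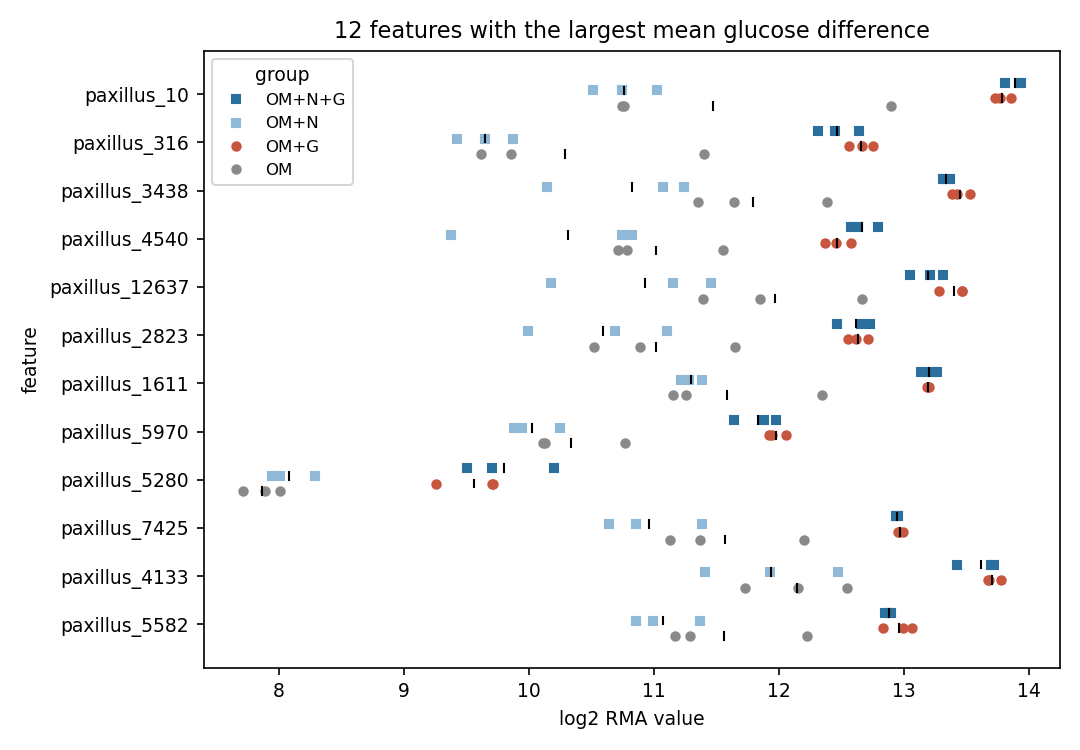
Log2 RMA value (horizontal axis) in each array for the 12 members with the largest mean glucose difference (rows), with groups marked by colour and shape and group means as black ticks. Glucose arrays lie to the right of the others in each row. paxillus_5280, between 7.71 and 10.20, has the lowest signal.

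Members covered a wide range of signal. The highest over all arrays, paxillus_12937, stood at 14.23, 14.18 and 14.20 in the OM+N+G arrays, against 12.16, 13.09 and 12.60 in OM+N, and at 14.32, 14.25 and 14.26 in the OM+G arrays, against 13.25, 13.53 and 12.91 in OM (log2). It had a difference of 1.58 with ammonium (SE 0.19, 2.99-fold) and of 1.05 without it (SE 0.19, 2.07-fold), and 1.35 with ammonium and 1.20 without it when the deviating arrays were left out. It was followed by paxillus_164, which averaged 13.45 ± 0.06 in OM+N+G, against 12.33 ± 0.10 in OM+N, and 13.59 ± 0.05 in OM+G, against 12.49 ± 0.32 in OM (log2, SD, n = 3). In paxillus_685, next in level, the differences were 1.87 (SE 0.26) with ammonium and 1.14 (SE 0.26) without it, and 1.70 with ammonium and 1.44 without it when the deviating arrays were left out. The lowest signal was that of paxillus_5280, described above, followed by paxillus_230, which stood at 9.27, 9.39 and 9.18 in the OM+N+G arrays, against 8.11, 8.19 and 8.11 in OM+N, and at 9.40, 9.48 and 9.51 in the OM+G arrays, against 8.35, 8.58 and 8.43 in OM (log2). The next, paxillus_3557, averaged 10.72 ± 0.14 in OM+N+G, against 9.55 ± 0.04 in OM+N, and 10.72 ± 0.08 in OM+G, against 9.62 ± 0.23 in OM (log2, SD, n = 3). Each of these 3 was well above the random-sequence control in every array.

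The members nearest the limits show what the smallest glucose differences looked like in the arrays. paxillus_8203, just inside the limit without ammonium, stood at 12.69, 12.63 and 12.63 in the OM+N+G arrays, against 11.38, 11.78 and 11.55 in OM+N, and at 12.68, 12.70 and 12.76 in the OM+G arrays, against 11.63, 12.03 and 11.46 in OM (log2). No array with glucose overlapped one without, although OM replicate 2 again was the highest of its group. paxillus_6799, just inside the limit with ammonium, averaged 11.92 ± 0.07 in OM+N+G, against 10.91 ± 0.12 in OM+N, and 12.11 ± 0.09 in OM+G, against 11.06 ± 0.25 in OM (log2, SD, n = 3). paxillus_8263, next to it, stood at 12.45, 12.48 and 12.55 in the OM+N+G arrays, against 10.85, 11.93 and 11.65 in OM+N, and at 12.52, 12.54 and 12.51 in the OM+G arrays, against 11.54, 11.68 and 11.33 in OM (log2). Here OM+N replicate 1 was about 1 below the other OM+N arrays, and OM+N replicate 2 lay above every OM array. paxillus_648, whose OM+G mean exceeded its OM+N+G mean by nearly the limit, stood at 12.87, 12.79 and 12.61 in the OM+N+G arrays, against 11.40, 11.88 and 11.62 in OM+N, and at 12.96, 12.98 and 13.07 in the OM+G arrays, against 11.73, 12.21 and 11.62 in OM (log2). In paxillus_648 all 3 OM+N+G arrays were below all 3 OM+G arrays.

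The glucose difference was larger with ammonium than without it in 84 of the 93 members. Its median was 1.41 with ammonium (2.67-fold) and 1.15 without it (2.22-fold), against -0.07 and -0.04 over all features with a mean of at least 6. The share over all features was not computed for the count of 84. The difference with ammonium minus that without it had a median of 0.24 over members, against -0.03 over all features with a mean of at least 6. Because the rule keeps the glucose groups together, this gap is close to the ammonium difference without glucose with its sign turned, and it is no test of whether the glucose difference depends on ammonium. Without both OM+N replicate 1 and OM replicate 2 the median difference was 1.33 with ammonium and 1.33 without it. It was then larger with ammonium in 37 members, again with no share over all features computed. OM replicate 2 was the highest OM array in every member, so leaving it out raises the difference without ammonium in each by construction.

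**Figure D3:**
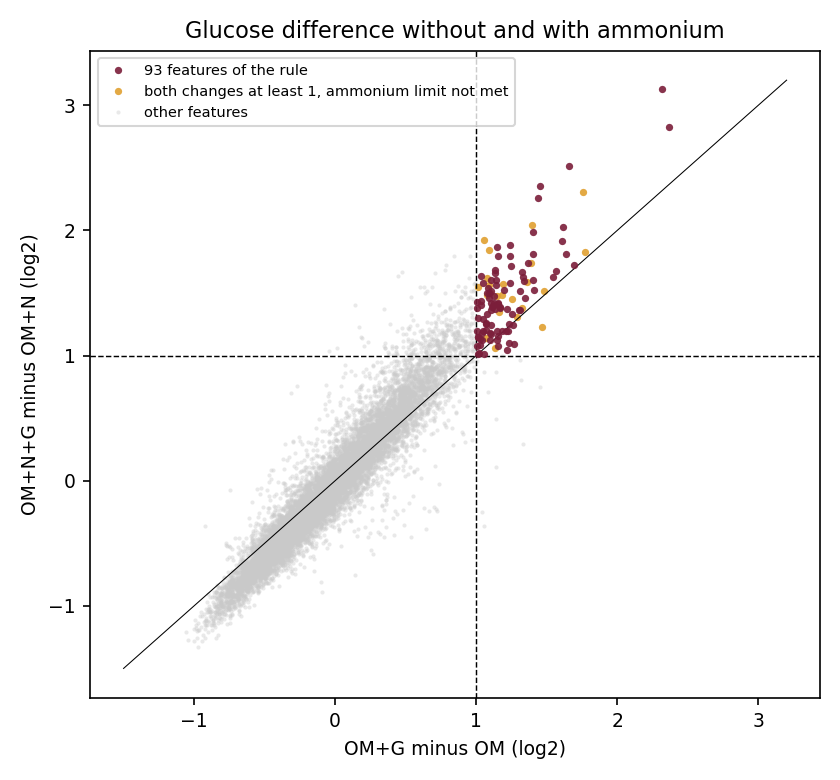
Glucose difference with ammonium (vertical axis, log2) against that without it (horizontal axis, log2) for all features with a mean of at least 6. Members are dark red, features that met both glucose limits but not the limit on OM+N+G minus OM+G are yellow, dashed lines mark 1 and the solid line marks equality. Of the members, 84 lie above the line of equality.

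Arrays that took no part in the choice, apart from the minimum on the mean and the joint RMA step, were used to look at the same measure again. limma called a difference at a Benjamini-Hochberg adjusted p under 0.05 over all 12214 features. Its estimate of the spread came from all arrays of the fit, those used for choosing included. At both ammonium levels glucose also went with the same part of the slide, so treatment and position cannot be told apart here either. The 476 features chosen for a glucose difference of at least 1 with ammonium had a median difference of 0.85 in the arrays without ammonium. limma called 449 of them upward there (94.3%, against 29.8% of all features) and 0 downward. The 131 features chosen without ammonium had a median difference of 1.40 with it, where 127 were called upward (96.9%, against 32.7%) and 1 downward. Without OM+N replicate 1 and OM replicate 2, 313 of 318 features chosen with ammonium were called upward without it (98.4%, against 31.4% of all features). Of 266 chosen without ammonium, 260 were called upward with it (97.7%, against 32.4%). The arrays left out were picked after seeing these same data. OM replicate 2 was the highest OM array in every member, so leaving it out raises their difference without ammonium by construction. Nothing is read from the change in these shares. The rule was also applied without all arrays of one replicate number, and the features so chosen were read in the left-out arrays. Chosen without replicate 1, 71 features had median differences of 1.80 with ammonium and 1.27 without it in the replicate 1 arrays. Chosen without replicate 3, 62 features had 1.25 and 1.46 in the replicate 3 arrays, in the same order. In the replicate 2 arrays the result was unlike these. The 177 features chosen without them had 1.12 with ammonium but 0.67 without it, where 11 of the 177 reached 1. Every difference in these left-out arrays was above 0 at both ammonium levels, and the lowest was 0.20. OM+N+G minus OM+G was within 0.25 for 65 of 71 features in replicate 1, against 89.8% of all features with a mean of at least 6. It was so for 166 of 177 in replicate 2, against 90.5%, and for 42 of 62 in replicate 3, against 78.6%. The limits on all 3 differences were met in the left-out arrays by 59 of 71 features in replicate 1, 8 of 177 in replicate 2 and 37 of 62 in replicate 3. Shares over all features were not computed for differences above 0, for the glucose limits or for the 3 limits together. Those counts are therefore a description only.

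The rule set no limit on the spread between replicates, but the spread is not independent of it. In the members OM replicate 2 lay part of the way to the OM+G mean, so the SD in OM is tied to the glucose difference. Features just outside the limits were not compared, so whether the spread is particular to the members was not tested. Members were uneven between replicates where glucose was absent and even where it was present. The median SD over members was 0.09 in OM+N+G, against 0.21 in OM+N, and 0.07 in OM+G, against 0.33 in OM (log2, n = 3 each). Over all features with a mean of at least 6 it was 0.07 in OM+N+G, against 0.08 in OM+N, and 0.06 in OM+G, against 0.10 in OM. An SD above 0.25 was found in 38 members in OM+N (5.78% of all features) and in 72 in OM (6.18%), but in 1 in OM+N+G (3.6%) and 1 in OM+G (2.91%). The SD was larger in OM+N than in OM+N+G for 77 members and larger in OM than in OM+G for 91. Shares over all features were not computed for these 2 counts, and the median SD of all features leaned the same way. In OM without its replicate 2 the median SD was 0.08 for members and 0.05 for all features. In OM+N without its replicate 1 the values were 0.14 for members and 0.05 for all features. Members thus stayed above all features in both groups. OM replicate 2 was the highest OM array in every member, so leaving it out tends to lower their SD by construction. The median SD of all features fell over 2 arrays as well, so nothing is read from the drop.

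**Figure D4:**
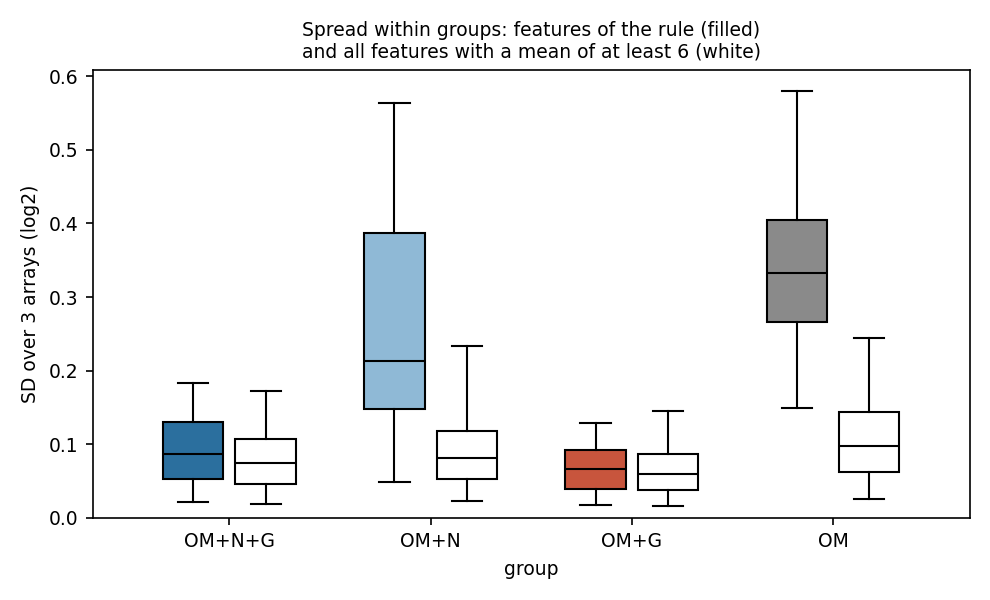
SD over the 3 arrays of a group (vertical axis, log2) by group (horizontal axis), for members (filled boxes) and for all features with a mean of at least 6 (white boxes); boxes give quartiles and median, whiskers the 5th and 95th percentiles. Median SDs of members are 0.09 in OM+N+G, against 0.21 in OM+N, and 0.07 in OM+G, against 0.33 in OM.

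OM replicate 2 was the highest OM array in 93 of 93 members, against 35% of all features. It exceeded the mean of the other OM arrays by 0.55 in the median member, against -0.04 over all features with a mean of at least 6. This placed it 40.7% of the way from the other OM arrays to the OM+G mean in the median member, with a range of 5.32% to 70.6%. OM+N replicate 1 was the lowest OM+N array in 66 members, against 26.3% of all features, and lay -0.27 from the mean of its replicates in the median member, against 0.05 over all features. Members differed in how far they followed these arrays. The largest SDs in OM were those of paxillus_10, paxillus_316 and paxillus_1611, and the smallest were 0.05 in paxillus_6834, 0.09 in paxillus_8823 and 0.11 in paxillus_147. paxillus_6834 stood at 12.59, 12.40 and 12.47 in the OM+N+G arrays, against 11.40, 11.43 and 11.34 in OM+N, and at 12.61, 12.57 and 12.39 in the OM+G arrays, against 11.24, 11.34 and 11.30 in OM (log2). In this feature both groups without glucose were more even than those with it. The glucose differences were 1.10 (SE 0.07) with ammonium and 1.23 (SE 0.07) without it, and 1.11 with ammonium and 1.25 without it when the deviating arrays were left out. paxillus_8823 averaged 13.09 ± 0.02 in OM+N+G, against 11.96 ± 0.22 in OM+N, and 12.85 ± 0.08 in OM+G, against 11.83 ± 0.09 in OM (log2, SD, n = 3). paxillus_147 averaged 12.30 ± 0.18 in OM+N+G, against 11.28 ± 0.15 in OM+N, and 12.17 ± 0.06 in OM+G, against 11.15 ± 0.11 in OM (log2, SD, n = 3).

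The rule sets no limit on the ammonium difference without glucose, although both of its group means enter the other differences, so it too is given as a description, and the calls below support nothing. In the 3 arrays of each group the members were mostly lower in OM+N than in OM, but not once the 2 deviating arrays were left out. The part of those arrays and of their slide positions in this was not tested. OM replicate 2 was the highest OM array in all 93 members, and OM+N replicate 1 the lowest OM+N array in 66. Leaving both out therefore raises OM+N minus OM in most members by construction, and nothing is read from the direction of that shift. The median of OM+N minus OM was -0.25 over members, against 0.04 over all features with a mean of at least 6. The OM+N mean was the lower one in 86 of 93 members, against 38.7% of all features. It was lower by at least 0.25 in 46 members, against 6.43% of all features, within 0.25 in 47 and higher by more than 0.25 in 0. limma called 0 members, against 0.336% of all features, and 32 had an unadjusted p under 0.05, against 15.2%. All OM+N arrays were below all OM arrays in 10 members, against 6.31% of all features. Without both OM+N replicate 1 and OM replicate 2, the median over members was -0.0011, and OM+N was the lower one in 47 of 93 members, against 49.9% of all features. The median was -0.07 without OM replicate 2 alone and -0.18 without OM+N replicate 1 alone, but -0.38 without OM replicate 3 alone.

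The lowest values of OM+N minus OM were those of paxillus_12637 (-1.04, SE 0.31), paxillus_3438 (-0.97, SE 0.26) and paxillus_685 (-0.83, SE 0.26). In paxillus_685 the arrays stood at 11.44, 11.48 and 12.43 in OM+N, against 12.46, 13.21 and 12.16 in OM (log2), so the groups without glucose overlapped. Without both deviating arrays the differences were -0.31 in paxillus_12637, -0.34 in paxillus_3438 and -0.36 in paxillus_685, still below 0 but by less than 0.4. At the other end, paxillus_706 (0.21, SE 0.09), paxillus_5280 (0.21, SE 0.17) and paxillus_8529 (0.13, SE 0.11) were higher in OM+N. Without both deviating arrays these were 0.35, 0.32 and 0.35. paxillus_706 stood at 11.61, 11.71 and 11.77 in the OM+N+G arrays, against 10.52, 10.76 and 10.53 in OM+N, and at 11.71, 11.59 and 11.68 in the OM+G arrays, against 10.35, 10.59 and 10.25 in OM (log2). Its OM+N and OM arrays overlapped, and with glucose both groups lay about 1 higher. paxillus_8529 averaged 12.75 ± 0.06 in OM+N+G, against 11.50 ± 0.18 in OM+N, and 12.60 ± 0.11 in OM+G, against 11.37 ± 0.22 in OM (log2, SD, n = 3).

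**Figure D5:**
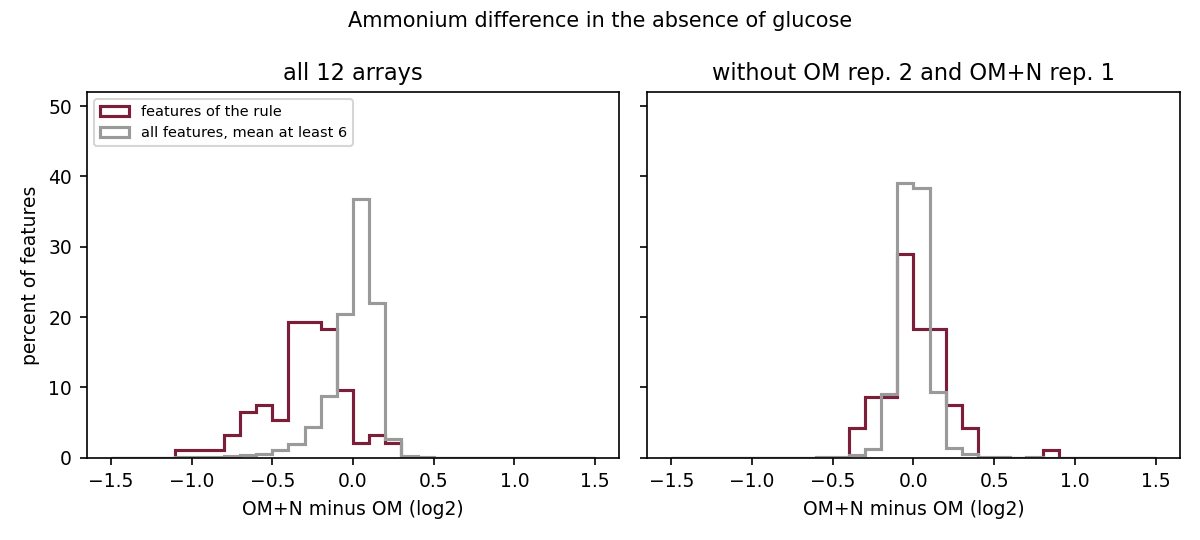
Distribution of OM+N minus OM (horizontal axis, log2, bins of 0.1) as a percentage of features (vertical axis), for the members and for all features with a mean of at least 6, from all 12 arrays (left) and without OM+N replicate 1 and OM replicate 2 (right). The median over members is -0.25 on the left and -0.0011 on the right.

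With glucose present, ammonium shifted the members little by construction: OM+N+G minus OM+G had a median of -0.04 and was above 0 in 34 of the 93. OM+G therefore held the highest mean in 59 members and OM+N+G in 34, while the lowest mean was in OM+N for 86 and in OM for 7. The 20 features with the same glucose limits that exceeded the limit upward had a median OM+N+G minus OM+G of 0.40, with glucose differences of 1.56 with ammonium and 1.17 without it in the median. Their median OM+N minus OM was 0.09. Both these features and the members had to pass the same glucose limits, so nothing is read from how close their glucose differences lie.

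Members were unevenly spread over the running numbers of the array, which the rule did not use. Numbers 1 to 1000 held 18 members, or 2.13% of the 846 features there with a mean of at least 6. From 1001 to 9000 the share in steps of 1000 numbers lay between 0.602% and 1.43%. Between paxillus_8823 and paxillus_11103 there was no member among 2279 features with a mean of at least 6. In all, 87 members had numbers up to 9000 and 6 had higher ones, against 7537 and 3962 of all features with a mean of at least 6. The sources used here do not say what the order of the numbers stands for, and median levels also differed along it, at 12.16 for numbers 1 to 1000 and 11.67 for 10001 to 11000. All 93 members were summarised from 10 probes, as were 12203 of the 12214 features.

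Among the members, 2 pairs had adjacent numbers. paxillus_4132 stood at 13.54, 13.55 and 13.43 in the OM+N+G arrays, against 11.40, 12.52 and 12.03 in OM+N, and at 13.69, 13.54 and 13.66 in the OM+G arrays, against 12.25, 12.68 and 11.74 in OM (log2). Its neighbour paxillus_4133, given above, differed from it by at most 0.18 in any array, and both ordered the groups alike. The other pair was less close. paxillus_4115 stood at 12.50, 12.48 and 12.47 in the OM+N+G arrays, against 10.60, 11.33 and 11.24 in OM+N, and at 12.45, 12.37 and 12.43 in the OM+G arrays, against 11.47, 11.77 and 11.00 in OM (log2). paxillus_4116 averaged 12.25 ± 0.08 in OM+N+G, against 10.64 ± 0.28 in OM+N, and 12.16 ± 0.07 in OM+G, against 11.01 ± 0.35 in OM (log2, SD, n = 3), and the pair differed by up to 0.49 in an array. Whether adjacent features measure the same gene was not tested, and they are not taken as independent.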

How the data were processed

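RNA of the 12 samples was hybridised as Cy3-labelled double-stranded cDNA to the 12 subarrays of 1 single-colour NimbleGen slide. The authors deposited RMA values, per the submitters' processing notes, and the sources used here name no software or version. The scale of the deposited values is not stated, and log2 was taken from their span and from what RMA usually gives. The series table and the per-array files held the same log2 values (0 differences). RMA in its usual form equalises the arrays, so a change in total mRNA cannot be seen. The deposited probe count per feature was used only to describe features, and the deposited score named as an error of the expression value, whose meaning is not stated, was not used. No detection calls come with the values, and the number of arrays limits the precision.

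Group means were fitted to all 12 arrays with limma 3.58.1 in R 4.3.3 (lmFit, contrasts.fit and eBayes, defaults), with Benjamini-Hochberg adjustment over 12214 features, the random control left out. SEs are limma's moderated ones and SDs are over 3 arrays. Errors of group differences assume that replicates are separate cultures. On simulated data for OM+N minus OM over 12214 features, 87% of changes of 0.5 and 98% of changes of 1 were recovered, with 9 false calls. These rates are over all features and do not describe the members, whose SDs in OM+N and OM were larger. The simulated noise was drawn separately for each feature and array. It held no deviation shared by many features of 1 array, so the rates do not cover deviating arrays.

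The members and lists were chosen with earlier results of these data known. Members named in the text are the 12 with the largest mean glucose difference, the 3 highest and 3 lowest in level, in OM+N minus OM and in SD within OM, adjacent numbers, and those nearest each limit of the rule. The alternatives were other normalizations, other limits of the rule, group medians, leaving out arrays, and other limma settings.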

Additional observations from a re-analysis of the deposited data

How the results depend on the processing

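The rule gave 97 features after quantile normalization, 80 of them members, 110 after cyclic loess (83 members) and 72 after scaling to the 75th percentile (72 members), and under these 3 all 93 members had glucose differences above 0. It gave 135 with group medians, 84 of them members, 285 with a glucose limit of 0.8, 9 with 1.5, 65 with an ammonium limit of 0.15 and 107 with 0.5. Leaving out 1 array at a time gave 56 to 179 features, and leaving out both OM+N replicate 1 and OM replicate 2 gave 153. The count of members called for OM+N minus OM, 0 in the fit reported, was 0 to 2 with 1 array left out and 1 without both of those arrays. The features so called were paxillus_420 and paxillus_5368 without OM replicate 3, paxillus_12937 without OM+N replicate 2, and paxillus_5757 without both. Same-numbered arrays of different groups deviated together in 4 of 18 pairs (r over 0.1, range -0.31 to 0.51). The highest values were between OM+N and OM, at 0.51 for replicate 2 and 0.30 for replicate 1, against -0.21 for replicate 3. These values do not settle whether replicate numbers pair samples, and the numbers were not taken to do so. With the replicate block, 0 members were called for OM+N minus OM, and over all features 47 were called for OM+N minus OM and 64 for the interaction (the glucose difference with ammonium minus that without it), against 41 and 90 without it. The median OM+N minus OM over members ranged between -0.38 and -0.07 with 1 array left out. The sign of OM+N minus OM turned under some alternative in 12 of the 29 named members, none of them called over all 12 arrays. Dropping 1 array leaves 2 in its group. Chosen after seeing the data were the SDs without 1 array and the reading at the other ammonium level without both deviating arrays. So was the requirement that limma call both glucose differences, which kept all 93 members. The rule had limits on both of these differences, so nothing is read from that count. Of all features 32.7% were called upward with ammonium and 29.8% without it.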

Other observations

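paxillus_5757, named after its values were seen, is the member with the most uneven arrays in OM+N. It stood at 13.36, 13.07 and 13.13 in the OM+N+G arrays, against 10.52, 12.32 and 12.55 in OM+N, and at 13.03, 13.25 and 13.10 in the OM+G arrays, against 11.47, 12.62 and 11.77 in OM (log2). OM+N replicate 1 lay more than 1.5 below its replicates and was the lowest of the 12 arrays. Over all arrays OM+N minus OM was -0.16 (SE 0.42), and without both OM+N replicate 1 and OM replicate 2 it was 0.82, the one member called there (limma adjusted p = 0.0164). The OM+N mean and the OM mean each rest on 2 arrays in that fit. The arrays left out were the lowest OM+N array and the highest OM array of this feature. Leaving them out raises OM+N minus OM by construction, so the call supports nothing. The share of all features called in that fit is not given here.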
